A study of Mus musculus with 9 samples.

Results

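Glycolysis, the chain of enzymes that splits glucose into pyruvate, and the genes that respond to low oxygen were followed through the differentiation of 3T3-L1 cells. The 43 genes were chosen by symbol from 19094 genes listed in at least 1 sample, and all 43 are listed. They comprise 2 glucose transporters, 17 glycolytic enzymes, 3 regulatory kinases, 3 genes of lactate transport, 3 subunits of the hypoxia-inducible factors (HIF), 2 HIF prolyl hydroxylases and 13 hypoxia targets outside glycolysis. 3T3-L1 is a mouse fibroblast-like line that a hormone cocktail turns into lipid-storing adipocytes in culture. RNA was sequenced from 3 samples at each of 3 stages, all in glucose-rich medium with serum. Day 0 cells were preadipocytes near confluence that had not met the cocktail. At day 4 the cells had received dexamethasone, IBMX and insulin for 2 days and then insulin alone, in maintenance medium, for 2 days. Day 8 cells had received fresh maintenance medium with insulin at day 4 and had then stayed in it for 4 days.

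Glucose enters the cell through facilitative transporters, is trapped by hexokinase and is committed to glycolysis by phosphofructokinase. Most steps are served by paralogs, related genes that encode the same activity with different regulation. HIF is a pair of an alpha and a beta subunit. When oxygen is plentiful, prolyl hydroxylases mark the alpha subunit for destruction through VHL, and when oxygen is scarce the pair activates glycolytic enzymes, lactate export, angiogenic factors and mitophagy genes. Adipocytes use glycolysis to make glycerol 3-phosphate and the acetyl units of fatty acids as well as lactate.

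The 3 stages differ in hormones and in the time since the last medium change as well as in differentiation, and these cannot be told apart. The deposited labels call all 9 samples adipocytes, and their extraction text speaks of dorsal root ganglia, whereas every other label and the methods of the study name the cell line. Of 14 markers of sensory neurons, 13 were below 1 FPKM in every sample or not listed. The defining adipocyte gene Adiponectin (Adipoq) was listed at 0.6, 0.63 and 0.28 FPKM at day 0, 374, 464 and 561 at day 4 and 753, 840.4 and 866 at day 8. In such bulk RNA, fewer cells of a type and less RNA per cell cannot be told apart.

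Levels are given as FPKM, fragments per kilobase of transcript, scaled to the depth of the sample, in the order of replicates 1, 2 and 3 (n = 3 per day). Changes are log2 fold changes from edgeR's quasi-likelihood test on the estimated counts of all 9 samples, with p adjusted over 13154 tested genes by the Benjamini-Hochberg method. Their standard errors (SE) were derived, as the absolute log2 fold change divided by the square root of the test's F statistic. Called means a log2 fold change above 1 or below -1, a factor of 2, together with an adjusted p under 0.05. Each sample held between 18216114 and 20452144 estimated counts, so that 3 counts, taken as the detection floor, corresponded to 0.147 to 0.165 CPM (counts scaled to library size). Day 4 against day 0 is the early phase, day 8 against day 4 the late phase and day 8 against day 0 the whole process. The early and late phases share the day 4 samples, and both share samples with the whole process.

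From day 0 to day 8, most of the 43 genes rose, and none fell beyond 2-fold. In the whole process 29 of the 42 tested genes were called higher, where 10.3% of all tested genes were, and 0 were called lower, where 7.70% of all were. Counted by adjusted p alone, 38 rose and 1 fell, against 34.8% and 36.2% of all tested genes. In the early phase 14 were called higher (9.77% of all) and 0 lower (7.98% of all), while 27 rose and 7 fell by adjusted p alone (35.5% and 33.7% of all). In the late phase 20 were called higher (4.24% of all) and 1 lower (2.81% of all), while 37 rose and 1 fell by adjusted p alone (22.5% and 22.7% of all). The late and whole-process counts include Aldoc, which entered the tests only through its day 8 counts. The median log2 fold change over the 42 genes was 0.56 early, 0.93 late and 1.75 over the whole process, and over all tested genes it was 0.016, -0.008 and -0.018.

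By absolute log2 fold change, whether or not a step passed the test, the late step was the larger one in 26 of the 42 genes and in 31.6% of all tested genes. With 1 sample left out this count lay between 22 (without day 4 replicate 1) and 27. The 26 include Pfkm and Arnt, in which neither step passed the test. By adjusted p, 25 of the 42 genes rose in both phases, a pattern of 8.24% of all tested genes. Another 6 (Slc2a1, Hk1, Pfkp, Eno2, Slc16a1 and Adm) fell early and rose late, as 9.82% of all tested genes did. Ldhb rose early without passing the test late, Ddit4 rose early and fell late, and Hif1a fell early without passing the test late. In the late phase Ddit4 was the one gene that fell by adjusted p.

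The windows from 250 bases before to 50 bases after each annotated start (RefSeq, GRCm38.p6) were searched on both strands for ACGTG and GCGTG, the letters at the core of the known HIF response element. They show what sequence lies at the starts of these genes, those that did not rise included. Of the 43 genes, 38 matched the promoter table, with 54 windows, some of which overlap. ACGTG stood in 31 of these windows (57.4%) and in 19.6% of the 32851 windows of all genes. GCGTG stood in 31 windows as well (57.4%), against 32.4% of all. The windows of these genes were richer in G and C, with a median of 62.7% against 52.7% in all windows, and the part of base composition in the shares was not tested. ACGTG stood in 12 of 28 windows of glycolytic enzymes and in 11 of 14 windows of the non-glycolytic targets, whose median G and C content was 58.2% and 69% respectively, so that the shares and the base composition differed together. CACGTG, which contains ACGTG on both strands and is also the E-box bound by other factors, stood in 11.1% of the windows and in 7.15% of all. A match is only a description of letters, and no binding was measured.

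Stretches before the start are printed below as examples for 5 genes of glycolysis and 6 genes outside it, from among those with a match. Each is written 5′ to 3′ in the direction of the gene, and capitals mark ACGTG, its reverse complement CACGT or, where both overlap, CACGTG.
Slc2a1 (chr4:119108697-119108725, plus strand): gtcccgccccggACGTGctccccaggccc
Aldoa (chr7:126799364-126799392, minus strand): tgtggctcgagtCACGTcctagcggggcg
Pgam1 (chr19:41911745-41911773, plus strand): cgctccttgcttACGTGcgctccgtgact
Pgk1 (chrX:106186938-106186985, plus strand): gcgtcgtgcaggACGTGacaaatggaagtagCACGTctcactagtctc
Ldha (chr7:46845647-46845786, plus strand): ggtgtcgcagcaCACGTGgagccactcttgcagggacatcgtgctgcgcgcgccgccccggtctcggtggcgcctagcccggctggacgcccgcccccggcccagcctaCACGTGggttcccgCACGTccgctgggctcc
Egln3 (chr12:54204087-54204115, minus strand): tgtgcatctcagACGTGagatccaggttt
Bnip3 (chr7:138909597-138909626, minus strand): gcgcacgcgccgCACGTGccacacgctccc
Ero1l (chr14:45318619-45318647, minus strand): cgcgcgccgctgCACGTccgcaggggagg
Ddit4 (chr10:59951941-59951969, minus strand): agaacgttgcgaACGTGcgcccggtgcct
P4ha1 (chr10:59323268-59323295, plus strand): tgtgacagagcgCACGTagcgagggctg
Vegfa (chr17:46025358-46025386, minus strand): ggagtgcgtgccCACGTcagagagcaaca
In these stretches Ldha and Bnip3 hold CACGTG, whereas Slc2a1, Pgam1, Egln3 and Ddit4 hold a single ACGTG in the direction of the gene. All the genes printed rose by adjusted p over the whole process, so the printed set cannot show whether the letters go with a rise. Hif1a, which fell, also holds ACGTG before its start. Pfkl, Tpi1, Gpi1 and Pdk1, which rose, hold no ACGTG in their windows.

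The transporters of glucose changed in their balance. Slc2a1 (GLUT1), the basal glucose transporter, was at 63.7, 68.3 and 64.3 FPKM at day 0, 42.1, 43.5 and 42.1 at day 4 and 103, 111 and 123 at day 8. Its 3 days did not overlap, with day 4 the lowest and day 8 the highest. It fell early (log2 fold change -0.55 ± 0.06, adjusted p = 8e-07) and rose late (1.45 ± 0.06, adjusted p = 3.2e-11). Slc2a3 (GLUT3), the high-affinity transporter of neurons, was listed at 0 to 0.02 FPKM with at most 2 counts and was the one gene of the 43 not tested. Slc2a4 (GLUT4), the insulin-responsive transporter and itself a marker of adipocytes, is not among the 43. It was at 0.12, 0.27 and 0.1 FPKM at day 0, 16.9, 22.6 and 27.3 at day 4, and 47, 52.1 and 55.4 at day 8. In the summed FPKM of the 3 transporters Slc2a1 made up 99.7% ± 0.123 (SD) at day 0, 65.9% ± 5.38 at day 4 and 68.6% ± 0.417 at day 8, and the sum was 65.6 ± 2.59 FPKM at day 0, 64.8 ± 5.32 at day 4 and 164 ± 14.2 at day 8.

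Hexokinase, which phosphorylates glucose, shifted from Hk1 toward Hk2. Hk1, the widely expressed form, was at 49.8, 51.4 and 52.4 FPKM at day 0, 37.7, 38.8 and 35 at day 4, and 44.2, 44 and 47.8 at day 8. It fell early (-0.39 ± 0.05, adjusted p = 7e-06) and rose late (0.33 ± 0.05), and day 8 stood below day 0 in every sample without passing the test (adjusted p = 0.3). Hk2, the form of insulin-sensitive tissues, was at 5.34, 5.27 and 5.19 FPKM at day 0, 15.9, 18.9 and 19.7 at day 4, and 19, 22.1 and 24.2 at day 8. It rose early (1.85 ± 0.09, adjusted p = 3.7e-11) with no overlap of days 0 and 4, while days 4 and 8 overlapped and the late rise was small (0.31 ± 0.08, adjusted p = 0.007). Hk2 made up 9.33% ± 0.336 of the sum of both at day 0, 32.8% ± 3.19 at day 4 and 32.4% ± 2 at day 8, and at all 3 stages Hk1 was the more abundant.

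Gpi1, which isomerises glucose 6-phosphate, was at 116, 116 and 117 FPKM at day 0, 140.1, 166 and 159 at day 4, and 259.7, 282 and 302 at day 8. It rose in both phases (0.48 ± 0.07 and 0.91 ± 0.07). Phosphofructokinase, the committed step, moved in its liver-type subunit. Pfkl was at 19.1, 19.9 and 19.2 FPKM at day 0, 43.4, 55.4 and 57.2 at day 4, and 102, 106 and 112 at day 8. It rose early (1.49 ± 0.08, adjusted p = 1.3e-10) and late (1.08 ± 0.08, adjusted p = 1.6e-08), with no overlap between days. Pfkm, the muscle-type subunit, lay between 41.9 and 45.6 FPKM in all 9 samples and passed the test only over the whole process (0.18 ± 0.05, adjusted p = 0.0028). Pfkp, the platelet-type subunit, was at 22.1, 23.1 and 21.8 FPKM at day 0, 18.3, 19 and 17.9 at day 4, and 28.2, 31.6 and 34.3 at day 8, lowest at day 4 and highest at day 8. Pfkl thereby went from 22.9% ± 0.364 of the summed phosphofructokinase FPKM at day 0 to 45.5% ± 3.27 at day 4 and 58.3% ± 0.311 at day 8, and Pfkm from 50.6% ± 1.06 to 38.3% ± 1.98 and 24.6% ± 1.23.

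The kinases that set the level of fructose 2,6-bisphosphate, the activator of phosphofructokinase, also diverged. Pfkfb3, whose product favours synthesis of the activator, was at 3.3, 3.27 and 3.15 FPKM at day 0, 11.2, 12.3 and 11.4 at day 4, and 15.2, 17.2 and 15 at day 8. It rose early (1.91 ± 0.07, adjusted p = 5.9e-13) and less late (0.47 ± 0.06, adjusted p = 8.2e-06). Pfkfb4 was at 2.9, 3.28 and 3.21 FPKM at day 0, 2.74, 3.16 and 3.19 at day 4, and 3.55, 3.38 and 3.65 at day 8. It did not pass the test early (adjusted p = 0.86) and rose slightly late (0.27 ± 0.09, adjusted p = 0.031). Pfkfb1, the liver form and not among the 43, was at 2.8, 2.58 and 1.88 FPKM at day 0, 5.45, 6.23 and 7.16 at day 4, and 15.1, 16.2 and 15.3 at day 8 and was called higher in both phases.

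Further down the pathway, Aldoa, the aldolase that splits fructose bisphosphate, was at 475, 475 and 478 FPKM at day 0, 1149, 1448 and 1473 at day 4, and 2074, 2179 and 2289.6 at day 8. Its rise was larger early (1.58 ± 0.08, adjusted p = 2.8e-11) than late (0.73 ± 0.08, adjusted p = 9.2e-07). Aldoc, the brain form, was at no more than 0.31 FPKM, with counts of 1, 1 and 2 at day 0, 3, 1 and 2 at day 4, and 11, 17 and 16 at day 8. It was called higher late (2.84 ± 0.50, adjusted p = 0.00021) and over the whole process (3.42 ± 0.54, adjusted p = 3e-05). Aldoc entered the tests only through its day 8 counts, so its calls depend on how genes were selected for testing. These fitted values rest on 1 to 3 counts per sample at days 0 and 4, and with limma on log2(FPKM + 1) they were 0.29 and 0.31 and not called. With at least 10 counts required in every sample Aldoc was not tested, and 19 genes were called higher late and 28 over the whole process. Tpi1, which interconverts the triose phosphates, was at 207, 221 and 203 FPKM at day 0, 336, 398 and 410.4 at day 4, and 699.7, 739 and 781 at day 8, and rose by similar steps early (0.93 ± 0.07) and late (1.00 ± 0.07, adjusted p = 7.7e-09). The late value lay at the threshold of the call.

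Gapdh, the dehydrogenase that begins the lower part of the pathway and a gene often used as a reference in RT-PCR, was the most abundant of the 17 enzymes in every sample. It was at 1589, 1686 and 1543 FPKM at day 0, 1914, 2256 and 2277 at day 4, and 4635, 5197 and 5944 at day 8. The 3 days did not overlap, and the rise was larger late (1.34 ± 0.08, adjusted p = 2.7e-09) than early (0.48 ± 0.08, adjusted p = 9.8e-05). Gapdh made up 0.37, 0.385 and 0.354% of all FPKM at day 0 and 1.03, 1.16 and 1.32% at day 8. Rplp0, a ribosomal protein gene used as a reference in the study's RT-PCR, was lower in every day 8 sample than in any day 0 sample, with 2144, 2213 and 2181 FPKM at day 0, 1765, 1913 and 1845 at day 4 and 1438, 1389 and 1409.6 at day 8. The 17 enzymes together held 0.937, 0.99 and 0.911% of all FPKM at day 0, 1.26, 1.48 and 1.48% at day 4 and 2.51, 2.74 and 2.96% at day 8.

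**Figure D1:**
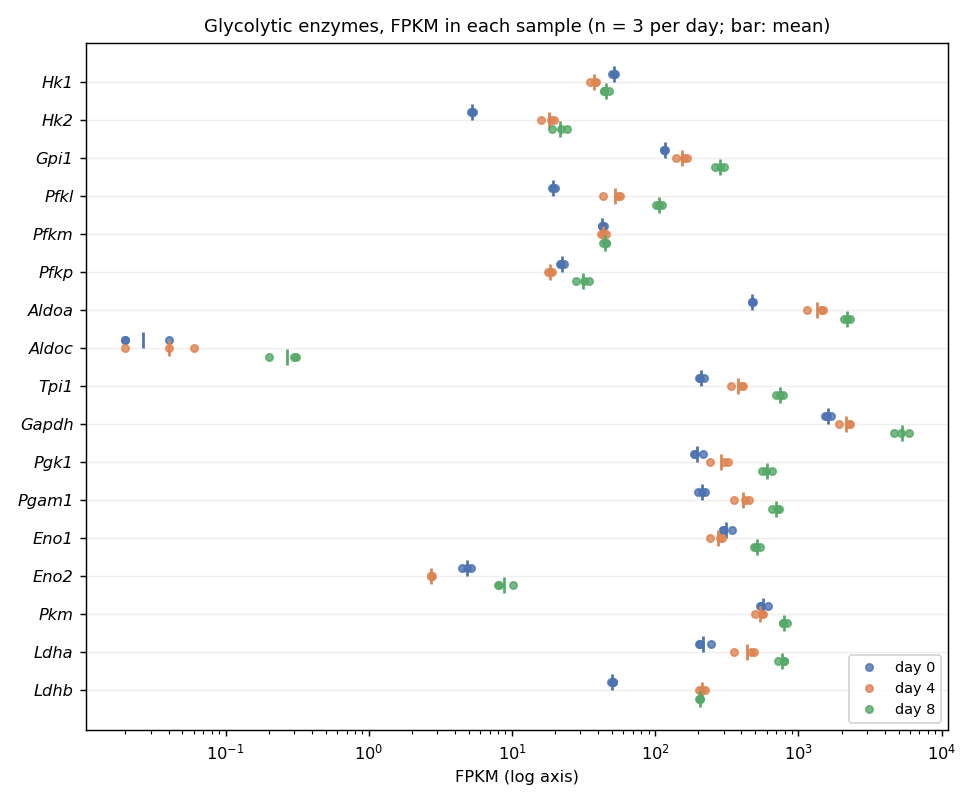
FPKM of the 17 glycolytic enzymes on a log axis, with 1 point per sample (3 at each of day 0, day 4 and day 8) and a bar at the mean of each day. Gapdh lies highest in every sample and Aldoc lies below 1 FPKM throughout. Hk2 and Ldhb make their larger step between day 0 and day 4, Eno1 and Pkm between day 4 and day 8, and Pfkm does not separate by day.

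Pgk1, the first step that yields ATP, was at 185, 215 and 188 FPKM at day 0, 242, 304 and 324 at day 4, and 561, 597 and 657 at day 8, and rose early (0.63 ± 0.09) and late (1.11 ± 0.09). Pgam1, the phosphoglycerate mutase, was at 213, 224 and 199 FPKM at day 0, 353, 421 and 451 at day 4, and 649, 709.8 and 737 at day 8, with an early rise at the threshold of the call (1.01 ± 0.08) and a late one just below it (0.82 ± 0.08). Both passed the test in both phases, with no overlap of days. Enolase and pyruvate kinase, the last steps, did not rise early. Eno1, the main enolase, was at 298, 342 and 298 FPKM at day 0, 243, 291 and 283 at day 4, and 489, 503 and 539 at day 8. Its early change did not pass the test (-0.13 ± 0.07, adjusted p = 0.11) and its late rise did (0.95 ± 0.07, adjusted p = 2.1e-08). Eno2, the neuronal enolase, was low at 5.15, 4.45 and 4.84 FPKM at day 0, 2.73, 2.71 and 2.75 at day 4, and 8.08, 8 and 10.2 at day 8. It fell early (-0.77 ± 0.12, adjusted p = 2e-05) and was called higher late (1.75 ± 0.11, adjusted p = 2.2e-09). Pkm, pyruvate kinase, was at 546, 617 and 535 FPKM at day 0, 500.4, 564 and 554 at day 4, and 779, 780.3 and 837 at day 8. Days 0 and 4 overlapped (-0.00 ± 0.06, adjusted p = 0.99) and the late rise passed the test (0.61 ± 0.06, adjusted p = 7.7e-07). The gene-level values hold both of its splice forms, PKM1 and PKM2, without telling them apart.

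Lactate dehydrogenase, which interconverts pyruvate and lactate, changed unequally in its subunits. Ldha, the M subunit and a known HIF target, was at 201, 244 and 206 FPKM at day 0, 357, 467 and 486 at day 4, and 723, 790.2 and 797 at day 8, and rose early (1.08 ± 0.10, adjusted p = 4.7e-08) and late (0.86 ± 0.09, adjusted p = 1.8e-06). Ldhb, the H subunit, was at 48.9, 50.7 and 50.7 FPKM at day 0, 202, 213 and 224 at day 4, and 205, 204 and 202 at day 8. It rose in the early phase (2.16 ± 0.05, adjusted p = 3.2e-15), and its late change did not pass the test (-0.02 ± 0.05, adjusted p = 0.81). Of the summed FPKM of both, Ldhb made up 18.8% ± 1.4 at day 0, 33% ± 2.7 at day 4 and 21% ± 0.996 at day 8.

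Pdk1, the kinase that shuts pyruvate dehydrogenase and a known HIF target, was at 6.44, 6.49 and 6.16 FPKM at day 0, 10.6, 13.3 and 14.9 at day 4, and 28.3, 32 and 34.1 at day 8. It rose early (1.09 ± 0.10, adjusted p = 7.8e-08) and late (1.33 ± 0.09, adjusted p = 8.6e-09), with no overlap between days. Its paralog Pdk4, a target of fatty acid signalling and not among the 43, was at 6.03, 6.34 and 7.09 FPKM at day 0, 18.4, 15.4 and 15.7 at day 4, and 3.99, 4.36 and 4.02 at day 8 and was called lower late (-1.95 ± 0.08, adjusted p = 3.1e-11). Pdk1 went from 11% ± 0.447 of the summed FPKM of the 4 kinases at day 0 to 16.4% ± 2.08 at day 4 and 31.4% ± 1.96 at day 8. Lactate leaves the cell through monocarboxylate transporters. Slc16a1 (MCT1) was at 12.6, 12.6 and 12.2 FPKM at day 0, 10.2, 10.7 and 11.3 at day 4, and 13.7, 14.4 and 14.3 at day 8, with a small fall early (-0.15 ± 0.05) and a small rise late (0.44 ± 0.05). Slc16a3 (MCT4), the exporter of strongly glycolytic cells, was at 0.55, 0.55 and 0.45 FPKM at day 0, 0.26, 0.57 and 0.68 at day 4, and 0.98, 1.14 and 1.24 at day 8, on 13 to 60 counts, and was called higher late (1.20 ± 0.26, adjusted p = 0.0014). Its late value was 0.89 without day 4 replicate 1 and 0.51 with limma on log2(FPKM + 1), a scale that understates the change of low genes, and was called in neither. Bsg (basigin), the chaperone that both transporters need, was at 332, 320.0 and 332 FPKM at day 0, 433, 466 and 489 at day 4, and 889, 1016 and 1171 at day 8, and was called higher late (1.19 ± 0.08, adjusted p = 6.4e-09) after a smaller early rise (0.56 ± 0.08).

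Of the 3 HIF subunits among the 43 genes, Epas1 rose, Hif1a fell slightly and Arnt passed no test. Hif1a, the alpha subunit that is stabilised in most cells in hypoxia, was at 43.7, 44.6 and 42.8 FPKM at day 0, 38.8, 35.9 and 35.1 at day 4, and 34.4, 34.3 and 32.5 at day 8. It fell slightly early (-0.19 ± 0.05, adjusted p = 0.0022) and over the whole process (-0.25 ± 0.05, adjusted p = 0.00022), where it was the one gene of the 42 that fell by adjusted p. Epas1 (HIF-2 alpha) was at 2.17, 2.35 and 2.38 FPKM at day 0, 12.8, 13.1 and 12.5 at day 4, and 17.9, 19.1 and 19 at day 8. It was called higher early (2.54 ± 0.06, adjusted p = 6.8e-15) and rose further late (0.59 ± 0.05, adjusted p = 1.1e-07), with no overlap between days. Arnt, the beta subunit, lay between 23.9 and 27.4 FPKM in all samples and passed the test in no phase. Hif3a, an alpha subunit that can act as an inhibitor and is not among the 43, was at 0.01, 0.02 and 0 FPKM at day 0, 5.14, 5.09 and 5.24 at day 4, and 0.87, 0.91 and 1.01 at day 8. It was called higher early, from at most 0.02 FPKM, and lower late (-2.42 ± 0.10, adjusted p = 2.1e-11). Arnt2, a relative of Arnt and also outside the 43, was low at 0.9, 1.01 and 0.92 FPKM at day 0, 0.19, 0.21 and 0.15 at day 4, and 0.23, 0.26 and 0.22 at day 8, and was called lower early (-2.31 ± 0.18, adjusted p = 6.1e-09) and over the whole process (-1.89 ± 0.17, adjusted p = 4.1e-08). Of the summed FPKM of the 3 alpha subunits, Epas1 made up 5% ± 0.27 at day 0, 23.5% ± 0.818 at day 4 and 35% ± 1.3 at day 8, and Hif1a remained the most abundant. These are transcript levels, and HIF alpha subunits are regulated mainly as proteins.

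Prolyl hydroxylases mark HIF alpha for destruction, and Egln1 and Egln3 are themselves known HIF targets. Egln1 (PHD2) was at 16.5, 15.7 and 15.5 FPKM at day 0, 25.6, 30.5 and 32.8 at day 4, and 69.9, 77.6 and 82.5 at day 8, and rose early (0.96 ± 0.08) and late (1.42 ± 0.08, adjusted p = 6.8e-10). Egln3 (PHD3) was at 1.41, 1.75 and 1.23 FPKM at day 0, 16.3, 21.2 and 23.8 at day 4, and 56.2, 61.7 and 74.1 at day 8. It had the largest whole-process log2 fold change of the 42 genes (5.57 ± 0.16, adjusted p = 5.7e-14), made of an early step of 3.88 ± 0.17 and a late step of 1.69 ± 0.12. Egln2 (PHD1), not among the 43, was at 26.9, 27.4 and 29.1 FPKM at day 0, 34, 34.1 and 33.4 at day 4, and 27.9, 26.9 and 27.3 at day 8. Egln3 thereby went from 3.25% ± 0.617 of the summed FPKM of the 3 hydroxylases to 24.2% ± 2.54 and 38% ± 2.01, and Egln2 from 61.5% ± 1.79 to 40.5% ± 3.87 and 16.4% ± 1.64.

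Among the 13 targets outside glycolysis, 11 rose in the early phase by adjusted p (35.5% of all tested genes) and 12 in the late phase (22.5% of all). Bnip3 and Bnip3l, receptors for mitophagy, both rose. Bnip3 was at 15.2, 13.3 and 13.2 FPKM at day 0, 82.3, 104 and 132 at day 4, and 217, 247 and 259 at day 8. It was called higher early (3.00 ± 0.14, adjusted p = 1.2e-11) and late (1.23 ± 0.12, adjusted p = 3.7e-07). Its relative Bnip3l (NIX) was at 30.9, 30.6 and 32 FPKM at day 0, 40.8, 43.7 and 47.5 at day 4, and 58, 63.6 and 64.6 at day 8, with steps of 0.56 ± 0.06 and 0.54 ± 0.06. Bnip3 made up 30.8% ± 1.94 of their sum at day 0 and 79.5% ± 0.54 at day 8. Higd1a, a mitochondrial protein induced by hypoxia, was at 6.06, 6.47 and 7 FPKM at day 0, 16.4, 19.5 and 21.7 at day 4, and 35.8, 37 and 43.8 at day 8, and was called higher early (1.63 ± 0.11) and late (1.06 ± 0.09).

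Of the 13 targets, 8 had their larger step late, where 31.6% of all tested genes did, and the next 6 hold 5 of these. Vegfa, the angiogenic growth factor, was at 46.8, 43.1 and 44.2 FPKM at day 0, 45, 49.2 and 59.8 at day 4, and 82, 89.97 and 94.2 at day 8. Days 0 and 4 overlapped, the early rise was small (0.23 ± 0.08, adjusted p = 0.02) and the late rise larger (0.88 ± 0.08, adjusted p = 2.5e-07). P4ha1, a subunit of the enzyme that hydroxylates proline in collagen, was at 35.6, 32.7 and 34.4 FPKM at day 0, 34.1, 35.1 and 41.1 at day 4, and 69.9, 77 and 79.6 at day 8, with steps of 0.17 ± 0.07 early and 1.08 ± 0.07 late. P4ha2, its paralog, was at 24, 26.9 and 25.8 FPKM at day 0, 32.8, 36.8 and 38.1 at day 4, and 54.5, 59.1 and 66.8 at day 8, with steps of 0.56 ± 0.08 and 0.79 ± 0.07. Ero1l, an oxidase that forms disulfide bonds in the endoplasmic reticulum, was at 64.7, 52.2 and 53.5 FPKM at day 0, 40.6, 44.3 and 48.2 at day 4, and 178, 241 and 278 at day 8. Its early change did not pass the test (-0.29 ± 0.13, adjusted p = 0.052), and its late rise was the largest of the 13 targets (2.43 ± 0.13, adjusted p = 4.3e-10). Mif, a cytokine, was at 358, 366 and 337 FPKM at day 0, 358, 436 and 442 at day 4, and 877, 895 and 977 at day 8, with steps of 0.29 ± 0.07 and 1.20 ± 0.07. Adm (adrenomedullin), a vasodilator peptide, differed from the others, with 24.9, 23.7 and 23.2 FPKM at day 0, 18.7, 16.2 and 15.9 at day 4, and 17.6, 19.4 and 21.7 at day 8. It fell early (-0.43 ± 0.08, adjusted p = 0.00025), rose late (0.25 ± 0.09, adjusted p = 0.024) and did not pass the test over the whole process (adjusted p = 0.064).

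Of the remaining targets, 3 rose in both phases and 1 reversed. Ndrg1, a stress-response gene, was low at 0.37, 0.24 and 0.52 FPKM at day 0, 0.7, 0.47 and 0.73 at day 4, and 2.14, 1.93 and 2.29 at day 8, on 13 to 133 counts, and was called higher late (1.79 ± 0.20, adjusted p = 2.2e-06). With limma on log2(FPKM + 1) its late value was 0.94 and was not called. Ankrd37, an ankyrin repeat protein, was at 2.18, 1.28 and 1.31 FPKM at day 0, 2.42, 4.47 and 4.29 at day 4, and 10.2, 13.4 and 15.5 at day 8, and was called higher early (1.28 ± 0.29, adjusted p = 0.00084) and late (1.85 ± 0.21, adjusted p = 2.5e-06). With limma on log2(FPKM + 1) its early value was 0.85 and was not called. Mxi1, an antagonist of MYC, was at 4.51, 3.8 and 4.49 FPKM at day 0, 7.18, 8.35 and 8.47 at day 4, and 14.2, 16 and 17.2 at day 8, and rose early (0.97 ± 0.09) and late (1.04 ± 0.08). Ddit4 (REDD1), an inhibitor of mTORC1, went up and down. It was at 26.6, 25.9 and 25.9 FPKM at day 0, 99.1, 106 and 109 at day 4, and 38.5, 39.6 and 46.1 at day 8, with no overlap between days. It was called higher early (2.07 ± 0.07, adjusted p = 1.6e-13) and was the one gene of the 42 called lower late (-1.29 ± 0.06, adjusted p = 1.8e-10).

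**Figure D2:**
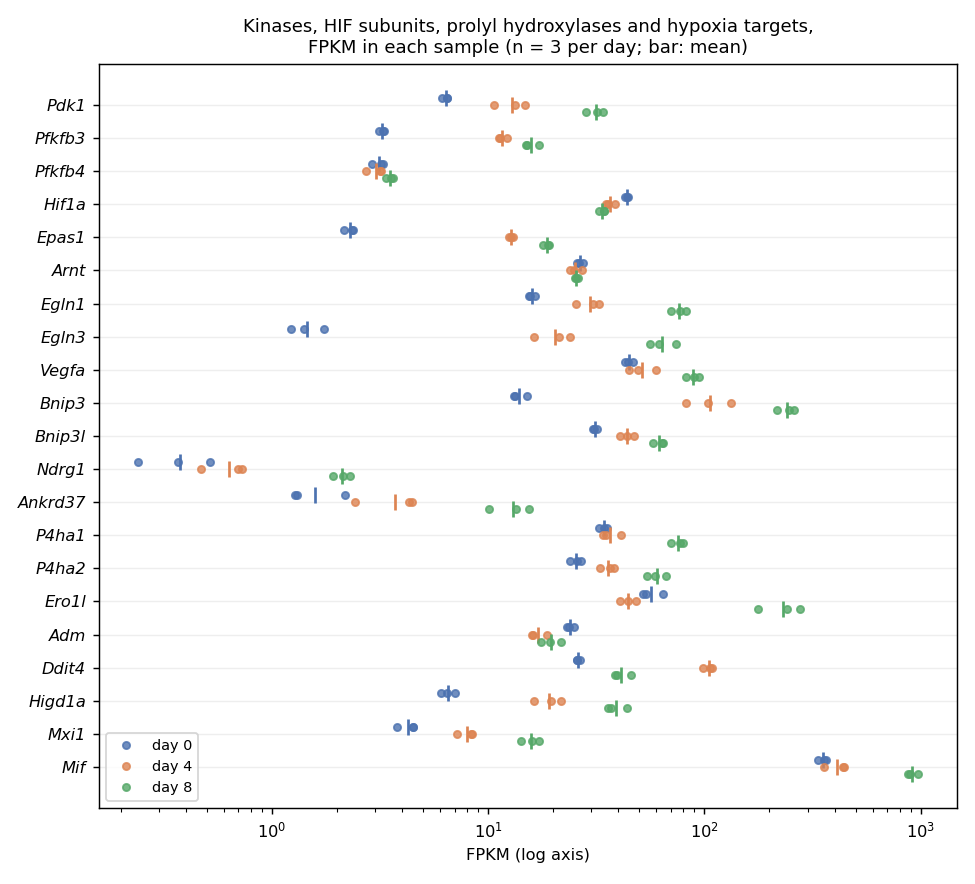
FPKM of the regulatory kinases, HIF subunits, prolyl hydroxylases and 13 non-glycolytic targets on a log axis, with 1 point per sample (3 per day) and a bar at the mean of each day. Egln3 and Bnip3 move farthest to the right from day 0 to day 8, Arnt does not separate by day, and Ddit4 is highest at day 4.

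The enzymes were then set beside the non-glycolytic targets. Of all tested genes, 9.77% were called higher and 35.5% rose and 33.7% fell by adjusted p early, the late shares were 4.24%, 22.5% and 22.7%, and 10.3% were called higher over the whole process. In the early phase 6 of 17 enzymes were called higher and 10 rose and 3 fell by adjusted p, with a median log2 fold change of 0.58. Of the 13 targets, 4 were called higher and 11 rose and 1 fell by adjusted p, with a median of 0.56. The median of the enzymes minus that of the targets was 0.014, and its sign turned under other settings. In the late phase 6 enzymes were called higher and 15 rose, with a median of 0.86, while 8 targets were called higher, 12 rose and 1 fell, with a median of 1.06, a difference of -0.199. Over the whole process 11 enzymes and 11 targets were called higher, with medians of 1.82 and 1.49, a difference of 0.332. Aldoc, tested only through its day 8 counts, is among the enzymes called late and over the whole process. Single genes ran over the whole process from -0.06 (Hk1) to 2.57 (Pfkl) among the enzymes other than Aldoc and from -0.18 (Adm) to 4.23 (Bnip3) among the targets. No test was made between the groups, whose members were chosen with earlier results known.

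**Figure D3:**
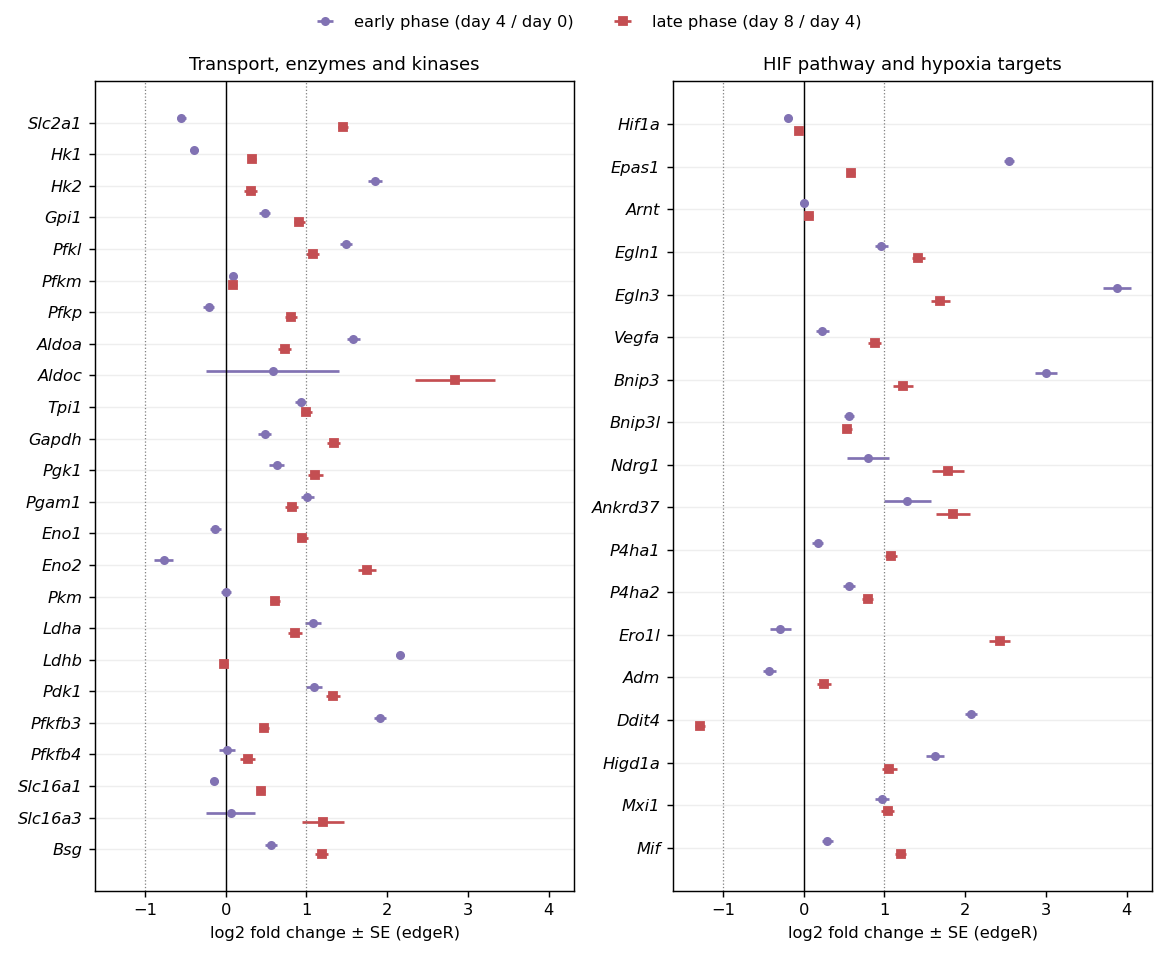
Log2 fold changes from edgeR, with SE derived from its F statistic, for the 42 tested genes in the early phase (circles) and the late phase (squares), n = 3 per day, with dotted lines at -1 and 1. Hk2, Ldhb, Pfkfb3, Epas1, Egln3, Bnip3 and Ddit4 have their larger step early, while Slc2a1, Eno2 and Ero1l lie below 0 early and above 1 late.

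Ratios of paralogs were compared between days within families. For 13 pairs of the 43 genes the log2 ratio of FPKM was compared between days by an exact two-sided permutation test, which cannot go below p = 0.1 with 3 against 3 samples, so no pair could pass 0.05. The ratios did not overlap between days in 11 of 13 pairs early, 12 of 13 late and 11 of 13 over the whole process. The FPKM of single genes did not overlap in 71.6%, 54.6% and 76.4% of the 13154 tested genes, the same share for ratios of other gene pairs was not computed, and nothing particular to paralogs is read from the count. Each of these had p = 0.1 in the exact permutation test (0.11 adjusted over 39 tests). The ratio of Hk2 to Hk1 was 0.103 ± 0.00409 (SD) at day 0, 0.49 ± 0.071 at day 4 and 0.479 ± 0.043 at day 8, so that the shift was early and the late values overlapped (p = 1, exact permutation test). The ratio of Pfkl to Pfkm was 0.453 ± 0.0166, 1.19 ± 0.145 and 2.37 ± 0.127, a shift in both phases. The ratio of Ldhb to Ldha was 0.232 ± 0.0211, 0.494 ± 0.0617 and 0.265 ± 0.0161, an early shift that mostly returned. The ratio of Egln3 to Egln1 was 0.0921 ± 0.0173, 0.686 ± 0.0468 and 0.833 ± 0.0562, and that of Epas1 to Hif1a was 0.0527 ± 0.00299, 0.35 ± 0.0176 and 0.554 ± 0.033. The ratio of P4ha2 to P4ha1 was 0.748 ± 0.0747, 0.979 ± 0.0616 and 0.795 ± 0.0383, and days 0 and 8 overlapped (p = 0.4, exact permutation test).

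**Figure D4:**
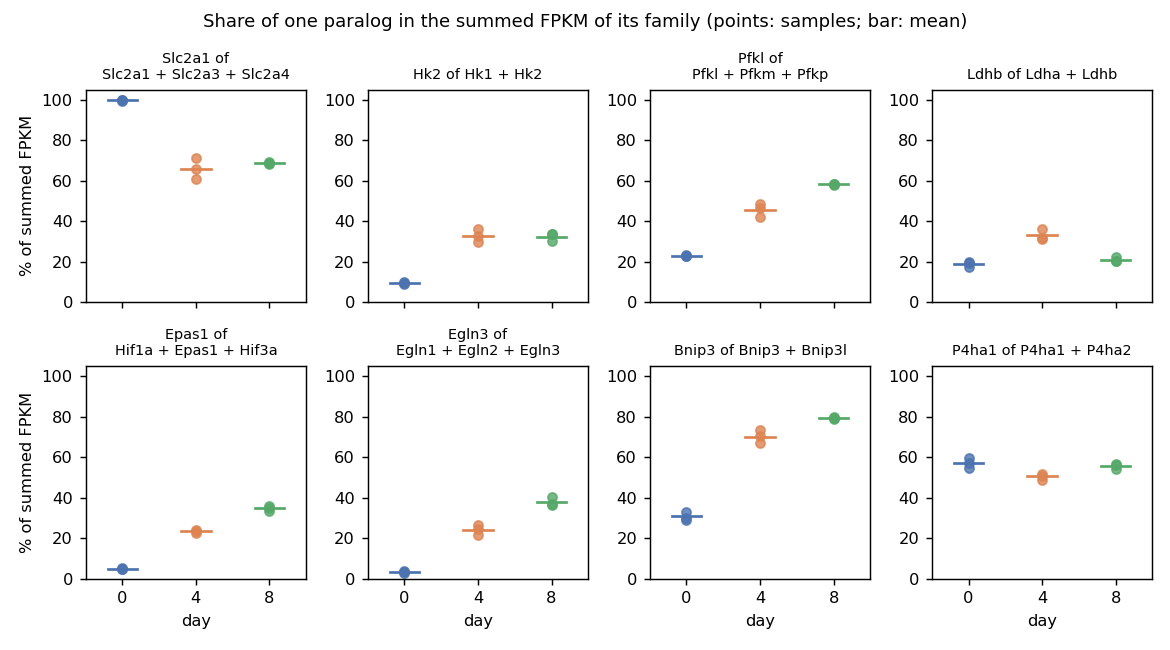
Share of 1 paralog in the summed FPKM of its family, in percent, at day 0, day 4 and day 8, with 1 point per sample and a bar at the mean (n = 3 per day). The shares of Pfkl, Epas1, Egln3 and Bnip3 are higher on each later day, those of Hk2 and Slc2a1 change between day 0 and day 4, the share of Ldhb is highest at day 4, and that of P4ha1 lies between 50.6% and 57.3% on average.

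Other genes of these pathways were listed beside the 43 by function. Of 128 such genes 111 were tested, and 35 were called higher and 4 lower early, 16 higher and 4 lower late, and 41 higher and 2 lower over the whole process, with medians of 0.44, 0.15 and 0.70. Over all tested genes 9.77% were called higher and 7.98% lower early, 4.24% and 2.81% late, and 10.3% and 7.70% over the whole process. Some of the called genes, such as Hif3a, Car9 and Pck1 with at most 8 counts in each day 0 sample, entered the tests only through later days. Their calls depend on how genes were selected for testing. Of 37 tested other HIF targets, 11 were called higher and 2 lower early, and 13 higher and 1 lower late. Car9, the carbonic anhydrase best known as a marker of hypoxia, was at 0.2, 0.2 and 0.18 FPKM at day 0, 0.53, 0.8 and 0.52 at day 4, and 8.96, 9.35 and 10.1 at day 8, and was called higher late (3.97 ± 0.15, adjusted p = 4.7e-12). Angptl4, an inhibitor of lipoprotein lipase and also a PPAR target, was at 12.2, 11.5 and 11.7 FPKM at day 0, 97.2, 103 and 102 at day 4, and 137, 137 and 144 at day 8, and was called higher early (3.16 ± 0.06, adjusted p = 1.1e-16). Edn1 (endothelin) was at 2.15, 2.56 and 2.4 FPKM at day 0, 0.72, 0.59 and 0.47 at day 4, and 0.21, 0.37 and 0.14 at day 8 and was called lower in both phases.

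Of 15 other regulators of the HIF pathway, 1 was called higher and 2 lower early, and 0 higher and 1 lower late. Vhl, the ubiquitin ligase subunit that recognises hydroxylated HIF, was at 13, 12.7 and 13.5 FPKM at day 0, 18.1, 19.9 and 19.96 at day 4, and 27.5, 28.9 and 29 at day 8, and was called higher over the whole process (1.24 ± 0.06, adjusted p = 1.3e-11). Cited2, an inhibitor of HIF that competes for its coactivators, was at 143, 156 and 148 FPKM at day 0, 68.3, 71.5 and 72.1 at day 4, and 77.4, 74.5 and 76.3 at day 8, and was called lower early (-1.01 ± 0.05, adjusted p = 1.1e-11). Over all tested genes called rises were more frequent early (9.77%) than late (4.24%), and the lists of pathways that meet glycolysis are to be read against those shares. Of 13 genes of pyruvate entry and its kinases, 7 were called higher early and 0 late. Of 7 genes of the pentose phosphate pathway, 2 were called higher early and 0 late, and of 10 transcriptional regulators of glycolysis 4 early and 0 late. Of 13 genes of glycerol 3-phosphate and glycogen, 5 were called higher early and 1 late (Gbe1, the glycogen branching enzyme). Gpd1, which makes glycerol 3-phosphate for triglyceride, was at 0.68, 0.7 and 0.62 FPKM at day 0, 299, 355 and 346 at day 4, and 615, 637 and 611 at day 8, and rose early (9.03 ± 0.10, adjusted p = 7.5e-19). Of 7 tested genes of gluconeogenesis, 3 were called higher early and 1 late (Pck1). Pck1 was at 0.09, 0.07 and 0.09 FPKM at day 0, 0.3, 0.44 and 0.68 at day 4, and 10.2, 11 and 10.8 at day 8, and its late rise was 4.53 ± 0.15 (adjusted p = 1.7e-12).

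Replicates differed in a common direction at days 4 and 8 but not at day 0, where replicates 1, 2 and 3 were the lowest sample in 12, 16 and 14 of the 42 genes. At day 4 replicate 1 was the lowest sample in 32 of the 42 genes, and at day 8 replicate 1 was the lowest in 37 and replicate 3 the highest in 37, whereas over all tested genes these shares were 35.4%, 37% and 35.3%. The summed FPKM of 12 adipocyte markers, none of them at 0 in all samples, with Fabp4 the most abundant and Lep below 1 FPKM throughout, came to 168, 163 and 164 at day 0, 6615, 7889 and 9405 at day 4 and 9597, 10444 and 10368 at day 8, also lowest in replicate 1 at days 4 and 8. All 12 were called higher early, where 9.77% of all tested genes were. Some of the 12, such as Lep and Retn with at most 3 counts in each day 0 sample, entered the tests only through later days. Their calls depend on how genes were selected for testing. Without day 4 replicate 1, 17 of the 42 genes were called higher early and 14 late. The 3 gained early were Mxi1, Tpi1 and Egln1 (log2 fold changes of 1.04, 1.01 and 1.06), and the 6 lost late were Pfkl, Pgk1, Tpi1, Mxi1, Higd1a and Slc16a3, with values between 0.89 and 0.99. Without day 8 replicate 1 or 3 the late count was 20 or 17. The part of the adipocyte marker level in these differences was not tested.

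Markers of other cells were summed in the same way. The 10 cycling-cell markers, led by Pcna, summed to 209, 278 and 219 FPKM at day 0, 139, 131 and 142 at day 4 and 159, 154 and 145 at day 8. Of these, 10 of 10 fell early by adjusted p, where 33.7% of all tested genes did. The 10 markers of preadipocytes and fibroblasts, led by Vim, summed to 6299, 6711 and 6688 FPKM at day 0, 4895, 4869 and 4557 at day 4 and 5440.0, 5224 and 5247 at day 8. Their members went both ways. By adjusted p, 1 rose and 7 fell early (35.5% and 33.7% of all tested genes). Late, 5 rose and 3 fell (22.5% and 22.7% of all). The 7 macrophage markers, led by Cd14, summed to no more than 8.98 FPKM, with 4 of them below 1 FPKM in every sample. The 6 Schwann cell markers summed to 139, 126 and 132 FPKM at day 0, 168, 166 and 166 at day 4 and 171, 169.9 and 164 at day 8, most of it Pmp22, which fibroblasts also express. The 14 neuron markers summed to 27.3, 21 and 23.4 FPKM at day 0, 6.3, 5.65 and 5.28 at day 4 and 18.5, 19.5 and 19.6 at day 8, most of it P2rx3. The part of the cycling fall in the changes above was not tested.

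Some of these genes have many processed copies in the genome, and reads of a copy and its parent cannot always be told apart. In transcripts of GENCODE M21, over 20% of the 50-base stretches of 8 of the 43 genes occur in transcripts of other genes, and their values are uncertain to that extent. The shares were 53.9% for Pgk1, 36.2% for Pgam1, 34.1% for Mif, 26% for Eno1, 25.8% for Pkm, 24.7% for Gapdh, 21% for Ldhb and 20.8% for Bnip3l. The other 35 were at or below 16.5%, with Bnip3 the highest of them.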

How the data were processed

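RNA-seq of 9 samples of 3T3-L1 cells (3 each at day 0, 4 and 8) was used. RNA of pooled cells was sequenced by a service provider. The authors removed low-quality reads, mapped with HISAT/Bowtie2 and quantified with RSEM, and the submitters' processing notes name CASAVA 1.4. The genome build is not given in the sources used here. The deposited expected counts are unnormalized RSEM estimates per gene, the deposited FPKM values are scaled by length and depth, and the deposited length, another quantity, is the isoform-weighted transcript length in bases. Nothing states that replicates were separate cultures, so p-values measure only the spread between these samples, which may be technical.

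Counts were rounded, filtered with filterByExpr and scaled by TMM, and edgeR 4.0.16 (R 4.3.3) fitted 1 coefficient per day. On simulated early-phase data over 13154 genes, 87 of 100 genes changed 2-fold and 97 of 100 changed 4-fold passed, with 12 unchanged genes. All other genes were held level there, whereas in the data 35.5% rose and 33.7% fell early by adjusted p. The simulation does not show how the test performs when so many genes change. Members and lists were chosen with earlier results of these data known. All 43 members are named, with paralogs of the same step, called or not, and at most 3 rises and 3 falls per other list and comparison from called genes with a mean of at least 1 CPM, of which the text describes some. One gene of the other lists is not reported here. Alternatives were RLE factors, library size alone, DESeq2 1.42.0, edgeR's exact test, limma 3.58.1, other filters, separate fits and each sample left out.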

Additional observations from a re-analysis of the deposited data

How the results depend on the processing

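The counts of genes called higher lay between 10 and 17 early, 14 and 21 late and 25 and 30 over the whole process in all settings, and 0, 1 and 0 were called lower in each. The sign of the early median difference between enzymes and targets (0.014) turned to -0.058 with limma on log2(FPKM + 1), -0.078 with log2(FPKM + 0.1), -0.009 with at least 10 counts in every sample and -0.009 with only the 2 days compared. With each sample left out in turn it ranged from -0.078 to 0.029, and the late difference from -0.234 to -0.133 (its value without day 8 replicate 3). The whole-process difference was 0.420 and 0.252 with the 2 limma settings. Genes lower by adjusted p over the whole process numbered 3 with library size alone and with each limma setting, and 1 to 2 with a sample left out (2 without day 4 replicate 1 or day 8 replicate 3). The cause was not tested. Library size alone moved the whole-process median of all genes to -0.129 and limma on log2(FPKM + 0.1) to -0.125.

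Of 2390 values of single genes under 19 settings, 2337 stayed on the same side of the threshold, 12 passed it newly and 41 no longer did, affecting 22 of 126 pairs of gene and comparison. Among the 2337 were 28 changes of sign, all in values that passed no test in either setting. With samples other than day 4 replicate 1 left out, early calls were lost for Pgam1 (0.97 without day 0 replicate 3 and 0.98 without day 4 replicate 2) and for Pgam1, Ldha and Pdk1 (0.94, 1.00 and 0.98 without day 4 replicate 3), and gained for Mxi1 (1.01 without day 0 replicate 1) and for Mxi1 and Ndrg1 (1.00 and 1.09 without day 0 replicate 3). Late calls were lost for Mxi1, Tpi1 and Higd1a (0.99, 0.98 and 0.98 without day 8 replicate 3) and gained for Eno1 (1.03 without day 4 replicate 2). With limma on log2(FPKM + 1) calls were lost early for Ldha, Pgam1, Pdk1 and Ankrd37 (1.00, 0.94, 0.91 and 0.85), late for Slc16a3, Ndrg1, Aldoc, Mxi1, Tpi1 and Higd1a (0.51, 0.94, 0.29, 0.90, 0.96 and 0.98) and over the whole process for Slc16a3, Aldoc, Bnip3l and Vegfa (0.48, 0.31, 0.97 and 0.97). With log2(FPKM + 0.1) they were lost early for Pgam1 and Pdk1 (0.94 and 1.00), late for Mxi1 and Tpi1 (0.97 and 0.96) and over the whole process for Bnip3l, Vegfa and Slc16a3 (0.99, 0.98 and 0.98). With library size alone they were lost for Pgam1 early (0.95), Mxi1 and Tpi1 late (0.99 and 0.96) and Bnip3l and Vegfa over the whole process (0.99 and 1.00), and with only the 2 days compared for Tpi1 late (1.00). Eno2 was called over the whole process at 1.03 without day 0 replicate 1, 1.00 without day 4 replicate 2 and 1.05 without day 8 replicate 1 or 2, and at 1.00 with DESeq2.

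Replicate numbers did not clearly pair the samples. Deviations of same-numbered samples from their day means correlated between -0.035 and 0.075, and those of other samples between -0.100 and 0.063. Not every sample correlated best with its own number. Whether a weak pairing exists cannot be told from these values. With the replicate block the median differences were 0.019 early, -0.191 late and 0.327 over the whole process, with 14, 20 and 29 genes called higher. All 273 paralog results stayed on the same side of the threshold, which was fixed in advance because no pair could pass it. The directions of the ratios are not read from this count. Genes with at most 60 counts per sample, such as Aldoc and Slc16a3, limit what the depth can show.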

Other observations

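The isoform-weighted transcript length does not enter the edgeR fold changes, but FPKM values are scaled by length. This transcript length was shortest at day 4 in Vegfa, where it ranged from 3332 to 3374 bases on day 0, from 3272 to 3295 bases on day 4 and from 3358 to 3388 bases on day 8. In Mxi1 the ranges were 5083 to 5118 bases at day 0, 5084 to 5095 bases at day 4 and 5134 to 5137 bases at day 8. Of the 4 PFKFB genes, Pfkfb2 went from 26.5% ± 2.85 (SD, n = 3) of their summed FPKM at day 0 to 11.1% ± 0.666 at day 4 and 4.5% ± 0.592 at day 8, and Pfkfb1 went from 20.2% ± 3.41 to 26.6% ± 2.45 and 42.6% ± 0.299. Eno3, the muscle enolase, made up 6.5% ± 0.151 of the enolase FPKM at day 0, 5.94% ± 0.495 at day 4 and 2.41% ± 0.381 at day 8.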
